A study of Mus musculus with 6 samples.

Results

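The 10 genes described here are 9 genes that mark the endothelium, the cell layer that lines blood vessels, and Vegfa, the growth factor that acts on it. They were taken by name (Pecam1, Cdh5, Kdr, Flt1, Tek, Tie1, Emcn, Sox17, Sox18 and Vegfa) from the 46078 genes counted in bulk RNA sequencing of mouse growth plate cartilage. All 10 were found once, and all 10 were among the 16813 genes that passed the filter on low counts. Growth plates of the distal femur and proximal tibia at E18.5 were compared between 3 control and 3 Idh1 mutant libraries. Controls carried the conditional Idh1-R132Q allele without Cre (Idh1 LSL/+), and mutants carried Col2a1-Cre with the same allele (Col2a1-Cre; Idh1 LSL/+). Both groups thus shared the lox-stop-lox allele and differed in the transgene as well as in expression of mutant Idh1. Cre was driven from Col2a1, a collagen gene of chondrocytes, so that endothelial cells were not its intended target. The animal care text of the labels gives an age of 2 months, whereas the age label and the methods give E18.5. The controls were littermates of the mutants according to the methods, but the litter of each library is not given. The labels do not state that each library came from a separate animal, and p-values measure the spread between these libraries, which may in part be technical.

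Growth plate cartilage has no vessels of its own. Hypertrophic chondrocytes release VEGF-A, encoded by Vegfa, which draws capillaries from the adjoining bone into the lower edge of the cartilage. VEGF-A signals mainly through the receptor KDR, while FLT1 binds it tightly and limits the amount that reaches KDR. The angiopoietin receptors TEK and TIE1 act later, in the stability of the vessel wall.

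These are measurements of whole dissected tissue, in which fewer cells of a type and less RNA per cell cannot be told apart. No member passed the test between the genotypes, in which edgeR called 0.19% of all tested genes at an adjusted p under 0.05 and 0.0535% with mutants higher. Kdr, Emcn, Sox17 and Sox18 were between 18.9% and 23.5% higher in mutants, with no overlap between the 3 control and the 3 mutant libraries, a separation that 6.83% of all tested genes had in this direction. Pecam1, Cdh5, Tek, Tie1, Flt1 and Vegfa overlapped between the groups, and the pan-endothelial genes Pecam1 and Cdh5 had log2 fold changes of 0.06 and -0.03.

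The promoters of 4 members are shown: those of the VEGF receptors Kdr and Flt1, that of their ligand Vegfa, and that of Emcn, which had the largest log2 fold change of the members. They are stretches of 239 bases that end within 11 bases before the counted start of the gene, taken 5′ to 3′ on the gene's strand from RefSeq's promoter windows on GRCm38.p6, where 6 of the 10 members were matched. Capitals mark GGAA, the core that ETS factors bind in many endothelial genes, and GGGCGG, a GC box, each searched on both strands (TTCC and CCGCCC on the reverse strand).
Kdr: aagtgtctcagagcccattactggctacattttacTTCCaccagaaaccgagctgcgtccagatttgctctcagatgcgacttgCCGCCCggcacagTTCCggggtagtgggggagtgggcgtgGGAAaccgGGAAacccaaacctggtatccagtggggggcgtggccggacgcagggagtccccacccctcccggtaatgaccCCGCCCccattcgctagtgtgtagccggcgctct
Flt1: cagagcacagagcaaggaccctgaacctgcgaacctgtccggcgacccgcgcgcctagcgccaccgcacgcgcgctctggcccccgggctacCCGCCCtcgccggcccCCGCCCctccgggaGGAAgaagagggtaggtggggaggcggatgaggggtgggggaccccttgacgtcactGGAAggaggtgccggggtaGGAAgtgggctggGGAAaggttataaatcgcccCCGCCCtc
Emcn: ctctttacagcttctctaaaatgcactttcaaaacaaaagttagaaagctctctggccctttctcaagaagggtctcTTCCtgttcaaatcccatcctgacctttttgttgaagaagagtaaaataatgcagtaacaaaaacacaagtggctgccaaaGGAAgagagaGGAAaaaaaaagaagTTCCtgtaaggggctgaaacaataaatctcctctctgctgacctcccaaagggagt
Vegfa: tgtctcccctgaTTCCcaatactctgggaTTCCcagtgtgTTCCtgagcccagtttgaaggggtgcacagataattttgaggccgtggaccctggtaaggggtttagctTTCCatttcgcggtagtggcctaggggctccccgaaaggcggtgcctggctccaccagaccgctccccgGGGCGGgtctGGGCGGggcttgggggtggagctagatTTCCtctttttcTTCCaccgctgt
The Kdr stretch lay at chr5:75978467-75978705 (reverse strand), that of Flt1 at chr5:147726023-147726261 (reverse strand), that of Emcn at chr3:137340828-137341066 (forward strand) and that of Vegfa at chr17:46032389-46032627 (reverse strand). GGAA was found 4 times in Kdr, Flt1 and Emcn and 6 times in Vegfa. Over the 32851 windows of the same length, 92.6% held it at least once, with a mean of 2.76 matches. GC boxes numbered 2 in Kdr, 3 in Flt1, 2 in Vegfa and 0 in Emcn, against 31.2% of all windows with at least 1. The Emcn stretch was also the poorest of the 4 in G and C, at 40.6%, while the other 3 lay between 59.4% and 70.7%. ACGTG, 1 form of the core of a hypoxia response element, was not found in these 4 windows and occurred in 15.8% of all windows. The form GCGTG was not counted, and it stands in the Kdr stretch and, on the reverse strand, in that of Flt1. Only these 239 bases were searched, so that elements further upstream were not covered. These matches describe letters and not binding sites.

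The libraries held 23445687 to 30415773 counted reads, and 3 counts in a library, used as the floor, corresponded to 0.0986 to 0.128 CPM (the usual depth-scaled count, here with edgeR's TMM factors). The floor covers counting error only, whereas the 95% intervals come from the edgeR fit and include the spread between libraries. The members lay far above the floor, from Sox17 with 373 to 510 counts per library upward. Idh1, the targeted gene, had 37.2, 39.1 and 65.3 CPM in controls and 47.5, 47.7 and 56.2 CPM in mutants, and its total count did not separate the genotypes (log2 fold change 0.10, adjusted p = 0.940 in edgeR). Mutant 3 stood apart from the other libraries in the sex-linked genes, with 26356 counts of Xist against 13 or fewer elsewhere and 0 counts over 4 Y-linked genes against at least 3871. Control 1 stood apart from the other controls in a few genes of larger vessels and in several genes of bone and of the cartilage edge. Among the latter were Mmp9 (229 CPM against 57.3 and 40.3), Acp5 (57.2 against 18.3 and 13.2), Mmp13 (104 against 28.0 and 14.8) and Ibsp (973 against 332 and 119.7). Of the 16813 genes tested, 32 were called by edgeR's quasi-likelihood test, 9 of them higher in mutants. The median log2 fold change of all tested genes was 0.00 (-0.003), and 8293 (49.3%) were higher in mutants.

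**Figure D1:**
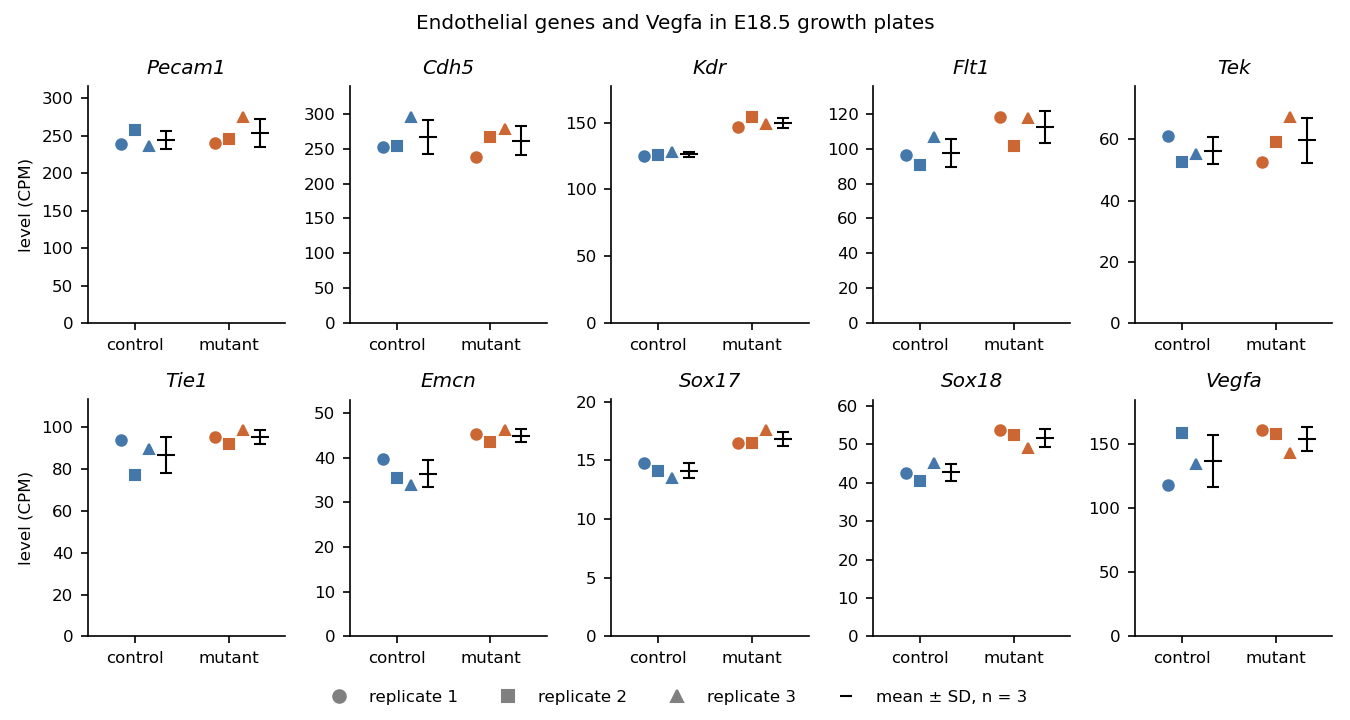
Level of each member in CPM, each panel on its own axis from 0, with 1 point per library (circles, squares and triangles are replicates 1, 2 and 3) and the group mean with its SD (n = 3) beside the points. In Kdr, Emcn, Sox17 and Sox18 the lowest mutant point sits above the highest control point, whereas in the other 6 panels the points of the groups overlap.

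Vegfa (ENSMUSG00000023951, GRCm38 chr17:46016993-46032377, reverse strand) was the ligand in the set. It had 118, 158 and 134 CPM in controls 1, 2 and 3 and 161, 158 and 143 CPM in mutants 1, 2 and 3. Control 2 lay above mutants 2 and 3, while controls 1 and 3 were below every mutant, so that the groups overlapped. The means were 137 ± 20.2 CPM (SD, n = 3) and 154 ± 9.38 CPM (SD, n = 3), a log2 fold change of 0.17 with a standard error (SE) of 0.11 (95% interval -0.08 to 0.41, adjusted p = 0.746 in edgeR). The difference was within the spread of the control libraries, and it depended on which control was left out: the log2 fold change was 0.29 without control 2 and 0.07 without control 1.

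Kdr (ENSMUSG00000062960, chr5:75932827-75978458, reverse strand, 29 merged exon blocks) encodes the main signalling receptor for VEGF-A. Its levels were 125, 125.5 and 128 CPM in controls and 147, 154 and 149 CPM in mutants. The 3 control values lay within 3 CPM of each other, and every mutant library was above all of them. The mean was 126 ± 1.597 CPM (SD, n = 3) in controls and 150.1 ± 3.81 CPM (SD, n = 3) in mutants. The log2 fold change was 0.25 (SE 0.07, 95% interval 0.09 to 0.41), with an unadjusted p of 0.00585 and an adjusted p of 0.324 from edgeR. The exact permutation test gave a two-sided p of 0.1, which is the smallest that 3 libraries against 3 allow.

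Flt1 (ENSMUSG00000029648, chr5:147561604-147726011, reverse strand, 33 merged exon blocks) encodes the receptor that also has a soluble form, which holds VEGF-A outside the cell. It had 96.3, 90.7 and 106.5 CPM in controls and 118.3, 101.7 and 117.6 CPM in mutants. Mutant 2 lay below control 3, so that the groups overlapped in that 1 pair of libraries. Its log2 fold change was 0.20 (SE 0.09, 95% interval -0.005 to 0.41, adjusted p = 0.596 in edgeR). Counts were summed over all exons of the gene, so that the membrane-bound and soluble forms of Flt1 are not separated.

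The angiopoietin receptors overlapped between the groups. Tek (ENSMUSG00000006386, chr4:94739289-94874976, forward strand), whose ligands are angiopoietins, had 61.2, 52.7 and 55.2 CPM in controls and 52.6, 59.1 and 67.4 CPM in mutants. The log2 fold change of Tek was 0.08 (SE 0.10, adjusted p = 0.891 in edgeR), and it turned to -0.01 without mutant 3, which held the highest value. Tie1 (ENSMUSG00000033191, chr4:118471191-118490061, reverse strand) encodes the partner receptor of TEK. Its levels were 94.0, 77.3 and 89.4 CPM in controls and 95.3, 91.8 and 98.5 CPM in mutants, with 1 mutant library, mutant 2, below control 1. Its log2 fold change was 0.13 (SE 0.09, adjusted p = 0.753 in edgeR) and 0.06 without control 2, the lowest library.

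The 2 junction genes, which are used most widely to count endothelium, had the most reads. Cdh5 (ENSMUSG00000031871, chr8:104101625-104144502, forward strand) encodes VE-cadherin, the adhesion protein of endothelial junctions. It had 253, 254 and 296 CPM in controls and 239, 267 and 279 CPM in mutants, so that the highest and the lowest library were a control and a mutant. The log2 fold change of Cdh5 was -0.03 (SE 0.10, 95% interval -0.25 to 0.19, adjusted p = 0.961 in edgeR). It was the only member with a value below 0, and the value turned to 0.05 without control 3 and to 0.03 without mutant 1. Pecam1 (ENSMUSG00000020717, chr11:106654217-106750628, reverse strand) encodes a junction protein that platelets and some leukocytes carry as well. It had 239, 258 and 236 CPM in controls and 240, 246 and 275 CPM in mutants. Its log2 fold change was 0.06 (SE 0.09, 95% interval -0.14 to 0.25, adjusted p = 0.917 in edgeR), and without mutant 3 it was -0.01. The intervals of Cdh5 and Pecam1 both overlapped that of Kdr (0.09 to 0.41).

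Emcn (ENSMUSG00000054690, chr3:137341067-137432185, forward strand) encodes endomucin, a mucin of the surface of capillaries and veins that is abundant in the vessels next to the growth plate. Its levels were 39.8, 35.5 and 33.9 CPM in controls and 45.3, 43.4 and 46.1 CPM in mutants. The lowest mutant exceeded the highest control, and the mutants differed among themselves by less than the controls did. The mean was 36.4 ± 3.05 CPM (SD, n = 3) in controls and 44.95 ± 1.38 CPM (SD, n = 3) in mutants. This gave a log2 fold change of 0.30 (SE 0.09, 95% interval 0.11 to 0.50, unadjusted p = 0.00577, adjusted p = 0.323 in edgeR; exact permutation p = 0.1).

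Sox17 and Sox18 encode transcription factors of the SOXF group, which act in the specification of arterial and lymphatic endothelium. Sox18 (ENSMUSG00000046470, chr2:181669836-181671640, reverse strand) had 42.5, 40.55 and 45.05 CPM in controls and 53.65, 52.4 and 49.0 CPM in mutants. The groups did not overlap, and the log2 fold change was 0.28 (SE 0.08, 95% interval 0.10 to 0.45, unadjusted p = 0.00659, adjusted p = 0.333 in edgeR; exact permutation p = 0.1). Sox17 (ENSMUSG00000025902, chr1:4490931-4497354, reverse strand) was the lowest of the members, with 14.8, 14.1 and 13.5 CPM in controls and 16.4, 16.5 and 17.5 CPM in mutants. Again no mutant value reached down to a control value, at a log2 fold change of 0.25 (SE 0.10, unadjusted p = 0.0262, adjusted p = 0.502 in edgeR). The count of Sox17 is uncertain, because a transcript on the opposite strand, Gm37587, shares 804 of its exon bases and the counting ignored strand. Cdh5 also lies across an antisense transcript, Gm29682, but with 0 shared exon bases.

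Among the 10 members, 4 (40%) had groups that did not overlap with the mutants higher, against 6.83% of all tested genes. The same 4 genes had an unadjusted p under 0.05 in that direction, against 3.71% of all tested genes. Of the 9 endothelial members 8 had a log2 fold change above 0, with a median of 0.20. No member was called, at an adjusted p under 0.05, by edgeR, DESeq2 or limma-voom, and at an unadjusted p under 0.05 the 3 tools counted 4, 3 and 4 of the 10. With the replicate block edgeR counted 4 of the 10 and DESeq2 2. Kdr, Emcn and Sox18 kept an unadjusted p under 0.05 in each of the 6 edgeR fits that left out 1 library, Sox17 in 4, Flt1 in 2, Vegfa in 1 and the rest in 0. These fits share most of their libraries, and the share of all tested genes that kept such a p was not computed.

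**Figure D2:**
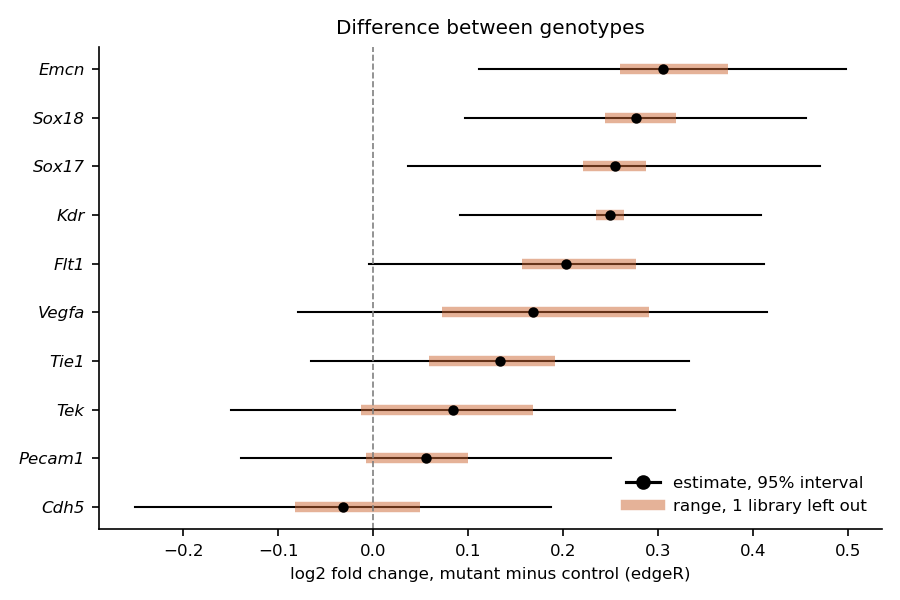
Log2 fold change (mutant minus control, from edgeR) of each member on the horizontal axis, with its 95% interval as a thin line and the range over the fits that left out 1 library as a thick band. The dashed line marks 0, and the intervals of Kdr, Emcn, Sox17 and Sox18 lie above 0 while those of the other 6 members include it.

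Markers of the other cell types in the dissected tissue varied with the libraries. The 9 endothelial genes summed to 948 to 1003 CPM in controls and 1007 to 1099 CPM in mutants. Osteoblast markers had 5 of 5 genes above 0 on the log2 scale, with overlapping sums of 33314 to 47792 CPM and 38011 to 39462 CPM that were almost all Col1a1 (log2 fold change 0.01). Dmp1, a matrix protein of late osteoblasts and osteocytes, had 82.8, 21.4 and 6.75 CPM in controls and 84.4, 198 and 90.6 CPM in mutants, without overlap (log2 fold change 1.75, SE 0.69, adjusted p = 0.522 in edgeR). Hypertrophic cartilage markers had 3 of 5 above 0, with sums of 234 to 1548 CPM against 1313 to 2087 CPM, and control 3 was the low library. Among them Ibsp, a mineral-binding matrix protein, had 973, 332 and 119.7 CPM in controls and 1141, 1474 and 949.9 CPM in mutants (log2 fold change 1.32, SE 0.57, adjusted p = 0.557 in edgeR), and Spp1 was at 0.79 and Col10a1 at 0.30. Without control 1 the log2 fold change was 3.14 for Dmp1 and 2.40 for Ibsp. The log2 fold changes of Dmp1, Ibsp and Spp1 were larger than that of any member. Dmp1 and Ibsp were called by edgeR without the filter on low counts (adjusted p = 0.00231 and 0.00771) and by neither DESeq2 nor limma-voom. Without the filter 259 genes were called over the whole table, against 32 as reported, and the log2 fold changes of Dmp1 and Ibsp were little changed (1.74 and 1.31). The labelled tissue, cartilage, was present in every library, with summed markers of 3230 to 6401 CPM in controls and 5015 to 7131 CPM in mutants (3 of 6 genes higher). Skeletal muscle markers, at 12771 to 18770 CPM and 12161 to 17775 CPM (3 of 5 higher), were detected in every library as well.

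Some lists separated the groups. All 6 red cell markers were lower in mutants, at 544 to 1581 CPM in controls and 288 to 426 CPM in mutants, and none passed the test in edgeR as reported (Alas2, log2 fold change -1.67, adjusted p = 0.112, and the globin genes Hbb-bs, Hbb-bt and Hba-a1 at -1.44, -1.37 and -1.31 in edgeR). DESeq2 called Alas2 (adjusted p = 0.0208), and 4 of the 6 with the replicate block (Alas2, adjusted p = 2.64e-10). With the same block edgeR called none of them (Alas2, adjusted p = 0.102), while edgeR without the filter on low counts called 5. Over the whole table DESeq2 called 193 genes, DESeq2 with the block 96 and edgeR without the filter 259, against 32 in edgeR as reported. Leukocyte markers were higher in mutants in 4 of 4 genes, at 108 to 119 CPM against 121 to 151 CPM (Itgam 0.78, adjusted p = 0.135 in edgeR but 0.00254 in DESeq2, where it was called). Tendon markers were lower in 3 of 4 genes, with sums of 1374 to 1492 CPM and 1112 to 1341 CPM, and Tnmd, a tendon membrane protein related to an inhibitor of vessel growth, fell by 0.81 on the log2 scale (adjusted p = 0.0374 in edgeR, and 0.0372 to 0.211 with 1 library left out), a call that 0.137% of all tested genes had in that direction. DESeq2 called Tnmd, Scx and Mkx. Osteoclast markers overlapped, at 239 to 517 CPM and 200 to 456 CPM (1 of 4 higher). No marker was at 0 in every library. The red cell, leukocyte and tendon sums and the level of Dmp1 were separated by genotype as those of Kdr, Emcn, Sox17 and Sox18 were, and their part in those differences was not tested.

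**Figure D3:**
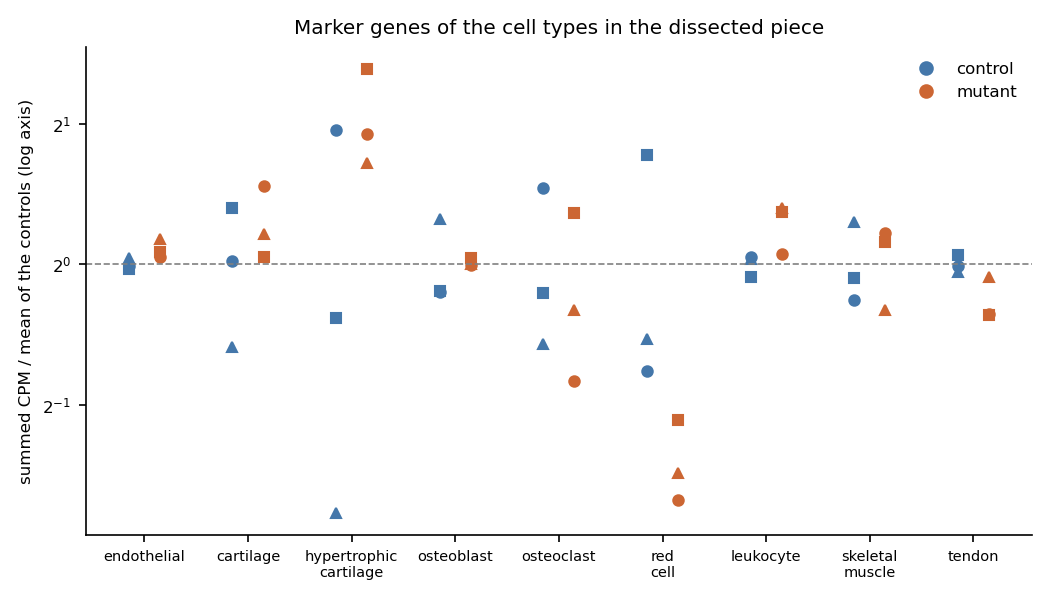
Summed CPM of the marker genes of each cell type divided by the mean of the controls, on a log axis, with 1 point per library (circles, squares and triangles are replicates 1, 2 and 3 of each group). The red cell and tendon points of the mutants lie below those of the controls, the leukocyte and endothelial points lie above them, and the other lists overlap.

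Compared per kilobase of exon (RPKM, the CPM divided by the exon length in kilobases), Cdh5 was the highest member, at 66.4 RPKM over the 6 libraries (range 59.9 to 74.2), and ranked 607 of the 16813 tested genes. Pecam1 followed at 40.0 RPKM, Vegfa at 33.8, Sox18 at 29.1, Tie1 at 18.52, Kdr at 15.3, Tek at 12.3, Flt1 at 7.79, Emcn at 7.52 and Sox17 at 3.24 RPKM, which ranked 9532. The ranges over the 6 libraries did not overlap between Cdh5 and Pecam1, Pecam1 and Vegfa, Sox18 and Tie1, Tek and Flt1, or Emcn and Sox17. Vegfa and Sox18, Tie1 and Kdr, and Kdr and Tek overlapped in their ranges although each library kept their order. Flt1 and Emcn did not differ beyond their spread, with Flt1 above Emcn in 4 of the 6 libraries. Both VEGF receptor genes were lower than Vegfa per kilobase in every library. The length used was that of all annotated exons of a gene, 13504 bases for Flt1, so that a gene with many seldom used exons reads lower on this scale.

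**Figure D4:**
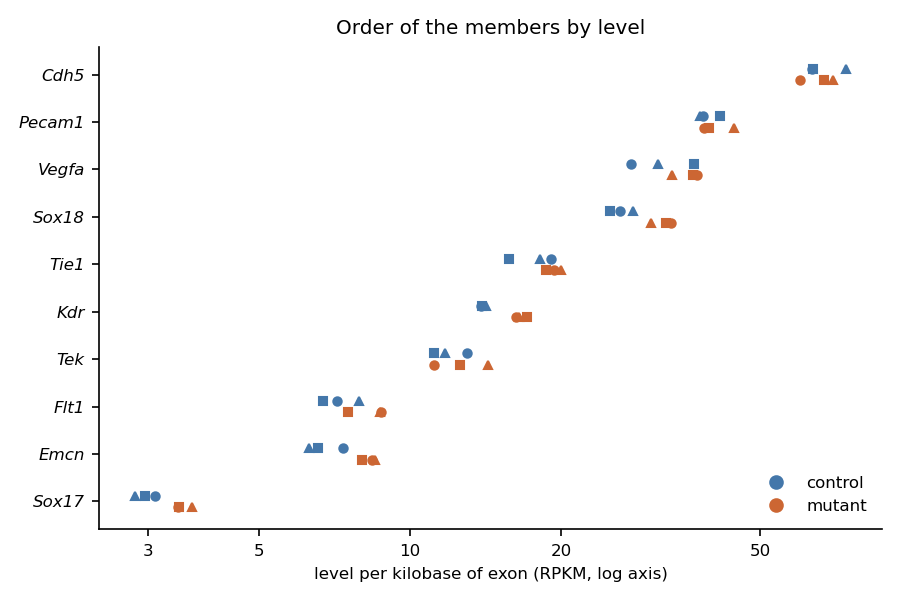
Level of each member in RPKM on a log axis, with 1 point per library (circles, squares and triangles are replicates 1, 2 and 3 of each group) and the genes ordered by their mean over the 6 libraries. Cdh5 stands highest at 66.4 and Sox17 lowest at 3.24 RPKM, and the points of Flt1 and Emcn lie over each other.

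Cdh5 and Pecam1 had the log2 fold changes closest to 0, and the other members were also set against them within each library, a comparison chosen after the values were seen. Per unit of Cdh5, in CPM, Kdr was 0.495, 0.494 and 0.433 in controls and 0.617, 0.578 and 0.534 in mutants. The groups did not overlap in this ratio, and neither did they for Emcn, Sox17 and Sox18 (exact permutation test, two-sided p = 0.1 for each, the smallest possible). The ratios of Flt1, Tek, Tie1, Pecam1 and Vegfa to Cdh5 overlapped. Against Pecam1 only Emcn and Sox17 stayed apart. Emcn stood at 0.166, 0.137 and 0.144 per unit of Pecam1 in controls and at 0.189, 0.176 and 0.168 in mutants. Kdr per unit of Pecam1 was 0.541 in mutant 3 and 0.544 in control 3, and Sox18 was 0.178 in mutant 3 and 0.191 in control 3, so that both overlapped. The ratios of Kdr and Sox18 to the junction genes were thus apart between the groups for 1 of the 2 reference genes. Because they reuse the CPM values in which the groups were already apart, these ratios are a description and no separate check.

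A further 30 genes of endothelium, from junction proteins to transcription factors, were all tested and 0 were called by edgeR, DESeq2 or limma-voom. In edgeR 5 (16.7%) had an unadjusted p under 0.05 with mutants higher and 0 with mutants lower, against 3.71% and 4.93% of all tested genes. Groups that did not overlap were found in 5 with mutants higher and in 1 with mutants lower, against 6.83% and 7.62% of all tested genes, and these shares are the background for the lists that follow as well. The median log2 fold change of the 30 was 0.06, and 21 were above 0. This median lay between 0.024 and 0.086 with 1 library left out, at 0.024 without mutant 3, 0.031 without control 2 and 0.037 without control 1. In the lists of vessel and Vegfa-related genes that follow, likewise, 0 genes were called by edgeR as reported or by limma-voom, and DESeq2 called P4ha1 alone. Egfl7, a secreted protein of the vessel wall, had 65.2, 74.2 and 70.1 CPM in controls and 81.1, 86.1 and 85.2 CPM in mutants (log2 fold change 0.27, SE 0.08, adjusted p = 0.334 in edgeR). Ets1, a transcription factor that binds GGAA, had 117, 108 and 117 CPM in controls and 136, 135 and 135 CPM in mutants (log2 fold change 0.25, SE 0.07, adjusted p = 0.347 in edgeR). Egfl7 and Ets1 had the lowest p-values of the 30. The 3 genes of the list with the highest levels per kilobase lay near 0 on the log2 scale: Eng, a co-receptor for TGF-beta ligands, at 0.01, Plvap, a protein of capillary pores, at 0.09, and Cd34, also found on blood progenitors, at -0.02.

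The mean log2 deviation of the 9 endothelial members from the control mean was 0.03, -0.05 and 0.02 in controls and 0.14, 0.14 and 0.23 in mutants. For the 30 other endothelial genes it was 0.06, -0.04 and -0.01 (-0.015) in controls and 0.03, 0.07 and 0.11 in mutants. The groups were thus apart in the mean of the members, whereas in the mean of the other genes mutant 1 lay below control 1.

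**Figure D5:**
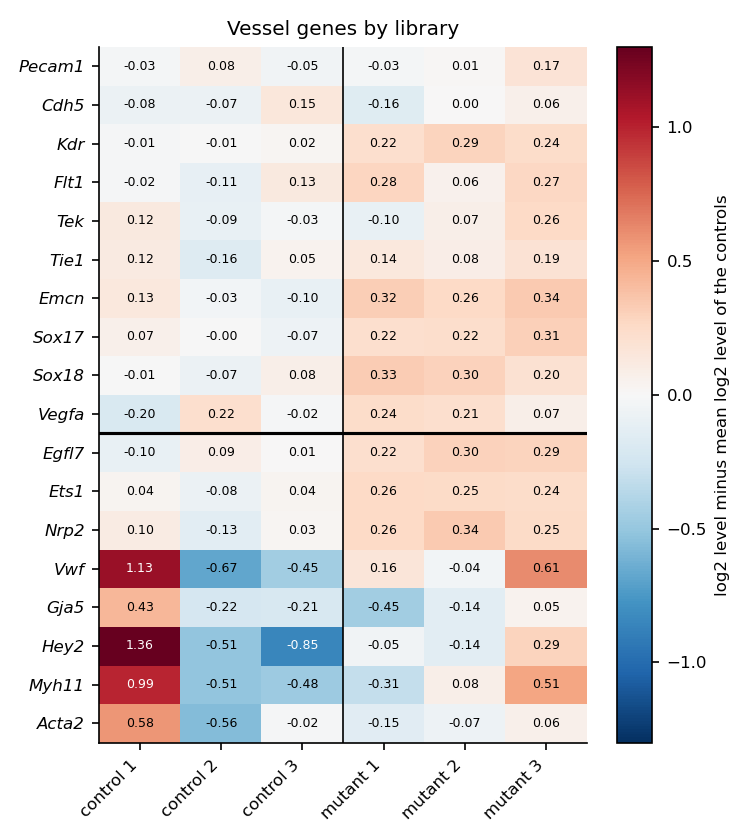
Log2 level of each member and of further vessel genes in each library, minus the mean of the controls, as colours with the value written in each cell; rows are genes and columns the 6 libraries. Vwf, Hey2 and Myh11 are highest in control 1, while the members Kdr, Flt1, Tie1, Emcn, Sox17, Sox18 and Vegfa are above 0 in all 3 mutant columns.

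The gap of control 1 is shown by a few genes of larger vessels, which were chosen after their values were seen. Vwf, the clotting factor of endothelium in larger vessels, was 109.6 CPM in control 1 and 31.5 and 36.6 CPM in controls 2 and 3, which made control 1 3.22 times the mean of the other two. Hey2, a Notch target of arteries, was 4.09 times as high, and Myh11, a myosin of smooth muscle, 2.80 times. The ratio of control 1 to the other controls exceeded 1.5 in 1 of the 30 other endothelial genes (median 1.03). It did so in 2 of the 13 Notch, arterial and tip cell genes (median 1.06) and in 2 of the 10 mural cell genes (median 1.08). No such gap was seen in the members, whose ratio of control 1 to the other controls lay between 0.808 and 1.147, with none of the 10 highest in control 1. The median log2 fold change of the 9 endothelial members stayed between 0.16 and 0.23 over all 14 alternative settings, those without control 1 included.

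The ligands and co-receptors related to Vegfa lay on both sides of 0. Of 7 genes tested, 1 had an unadjusted p under 0.05 in each direction, and the median log2 fold change was 0.02, which lay between -0.031 without mutant 3 and 0.085 without mutant 1. Nrp2, a co-receptor for VEGF ligands, had 214, 182 and 203 CPM in controls and 238, 252 and 237 CPM in mutants (log2 fold change 0.28, SE 0.09, adjusted p = 0.385 in edgeR), without overlap. Its paralog Nrp1 overlapped widely, with a log2 fold change of 0.02. Vegfb, another ligand of FLT1, had 26.9, 33.8 and 38.1 CPM in controls and 27.8, 24.9 and 25.0 CPM in mutants (log2 fold change -0.35, SE 0.13, adjusted p = 0.471 in edgeR). Mutant 1 lay above control 1 in Vegfb, so that the groups overlapped.

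The angiopoietin genes, listed with the phosphatase Ptprb that acts on TEK, held 5 tested genes with 0 at an unadjusted p under 0.05 and a median of -0.09. The median had no stable sign, at -0.163 without mutant 2, 0.04 without mutant 1 and 0.078 with control 1 and mutant 3 both left out. Angpt1, which activates TEK, had 16.1, 11.2 and 11.2 CPM in controls and 17.4, 14.2 and 16.5 CPM in mutants (log2 fold change 0.32, adjusted p = 0.627 in edgeR). Angpt2, which can block it, had a log2 fold change of -0.23 (adjusted p = 0.699 in edgeR), and Ptprb one of 0.05. Each of these overlapped between the groups.

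Among 13 genes of Notch signalling, arteries and sprouting tip cells, 1 had an unadjusted p under 0.05 with mutants higher and 1 with mutants lower, and the median was 0.02 (-0.043 without mutant 2, 0.049 without control 1). Notch4, a Notch receptor of endothelium, was higher in all mutants at 46.9, 50.9 and 49.2 CPM against 42.2, 41.1 and 45.5 CPM (log2 fold change 0.19, adjusted p = 0.536 in edgeR). Apln, the ligand that tip cells secrete, was lower in all mutants at 23.5, 26.0 and 28.9 CPM against 31.3, 31.4 and 30.6 CPM (log2 fold change -0.25, adjusted p = 0.502 in edgeR). The genes with the highest levels per kilobase were Efnb2, Gja4 and the venous receptor Ephb4, with log2 fold changes of 0.12, 0.02 and -0.12. The 10 genes of mural cells, the pericytes and smooth muscle cells around vessels, had a median of 0.00 (0.001) with 1 at an unadjusted p under 0.05 (Higd1b, 0.46, adjusted p = 0.567 in edgeR) and no gene without overlap. That median was -0.051 without control 2 and 0.093 without control 1. Of these, the pericyte gene Rgs5 had a log2 fold change of 0.15, Cspg4 0.12, Acta2 -0.12 and Des, also a muscle gene, -0.10. The 4 lymphatic genes were all below 0 with a median of -0.28, 0 at an unadjusted p under 0.05 and all overlapping: Ccl21a was at -0.51, Prox1 at -0.32, Lyve1 at -0.24 and the receptor Flt4 at -0.01. Without control 1 the median was -0.093 and Prox1 was at 0.02. Control 1 was 1.80 times the mean of the other controls in Prox1 and 1.66 times in Ccl21a.

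On the side of the ligand, 11 regulators of Vegfa had a median of -0.04 (0.002 without control 3), with 1 at an unadjusted p under 0.05, Runx2. Hif1a and Epas1 encode the oxygen-regulated factors that act on the Vegfa promoter. Hif1a overlapped between the groups at a log2 fold change of 0.06, and Epas1 did not, with 113, 109 and 119 CPM in mutants against 106, 92.9 and 106 CPM in controls (log2 fold change 0.17, adjusted p = 0.635 in edgeR). The prolyl hydroxylase genes Egln1 and Egln2, whose products mark HIF proteins for destruction, were at -0.04 and -0.11. Runx2, the transcription factor of hypertrophy and bone, had 45.5, 40.97 and 43.8 CPM in controls and 37.2, 39.9 and 24.4 CPM in mutants (log2 fold change -0.36, SE 0.16, adjusted p = 0.563 in edgeR), lowest in mutant 3. Without mutant 3 its log2 fold change was -0.17, and its unadjusted p was under 0.05 in 2 of the 6 fits with 1 library left out.

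Hypoxia-inducible factors act on Vegfa and on many other genes, of which 12 were listed. Of these, 9 were above 0, 3 (25.0%) had an unadjusted p under 0.05, against 3.71% of all tested genes, and 4 (33.3%) had groups that did not overlap, against 6.83%, all with mutants higher. The other 3 genes were below 0, down to a log2 fold change of -0.34. The median of the 12 was 0.16, and 0.084 without mutant 1. P4ha1, a collagen prolyl hydroxylase subunit, had 379.5, 379.1 and 322 CPM in controls and 475, 523 and 491 CPM in mutants, a log2 fold change of 0.46 (SE 0.10, adjusted p = 0.141 in edgeR). It was not called by edgeR as reported or by limma-voom, but was by DESeq2 (adjusted p = 0.00084) and by edgeR without the filter on low counts. Ndrg1, a stress response gene, had 61.3, 55.5 and 57.4 CPM in controls and 74.8, 68.5 and 76.3 CPM in mutants (log2 fold change 0.335, adjusted p = 0.200 in edgeR). Ldha and Aldoa, enzymes of glycolysis, had log2 fold changes of 0.13 (0.135) and 0.14, and Aldoa overlapped.

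Of 8 matrix and secreted proteins that restrain vessel growth, 0 had an unadjusted p under 0.05, and the median was -0.09 (-0.037 without control 2). Thbs2 and Timp3 did not overlap, with the mutants lower, at log2 fold changes of -0.17 each. Thbs2 had 1222, 1216 and 1272 CPM in controls and 1025, 1120 and 1144 CPM in mutants (adjusted p = 0.682 in edgeR). Sparc, the most abundant, was at -0.05 and Serpinf1 at 0.12, both with overlap.

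The profile most like that of the 9 endothelial members, as Pearson's r over the 6 libraries with their mean log2 CPM among 11507 genes with a mean of at least 5 CPM, belonged to Zfp446 (r = 0.995), Adgrg1 (0.989), Atp6ap1 (0.984), Mon2 (0.975), Polr3a (0.972), Phkg2 (0.972), Tbcd (0.969), Atg13 (0.967), Clip4 (0.966) and Gm20342 (0.964). The members' own r with their mean, of which each is a part, ran from 0.928 for Sox17, 0.894 for Emcn and 0.887 for Kdr down to 0.412 for Pecam1 and 0.088 for Cdh5. For Vegfa the highest were Mtg2 (0.993), Mfsd10 (0.992), Apba3 (0.989), Crtc2 (0.983) and Polr1d (0.981). Of the endothelial members Kdr was the most like Vegfa (0.55), and Tek the least (-0.447). These values are descriptions over 6 points, which are libraries that also differ in depth and genotype.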

How the data were processed

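Growth plate cartilage in 6 libraries (3 control, 3 Idh1 mutant, grouped by their labels) was profiled by poly(A) RNA sequencing with a stranded kit and single-end reads. The authors trimmed the reads with Trim Galore 0.6.4, mapped them to GRCm38 with STAR 2.6.1d and counted them on exons with featureCounts 1.6.4, and per the file headers strand was ignored. The deposited values are raw counts for each gene, not normalized, and leave out reads with several mapping places or overlapping genes. The library totals of 23445687 to 30415773 reads set the precision of low genes. The number of per-sample columns not used was 0.

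The counts were analysed with edgeR 4.0.16 in R 4.3.3: filterByExpr (minimum count 10, minimum total count 15), TMM factors (0.964 to 1.02), and the quasi-likelihood test of genotype over 16813 genes with Benjamini-Hochberg adjustment, called at an adjusted p under 0.05. The authors fitted litter and genotype with DESeq2 1.28.1, but the litters are not in the labels, so genotype alone was fitted. For single values an exact permutation test (two-sided) over libraries was run. The common dispersion was 0.0173. Replicates differed by more than sampling noise (chi-square over degrees of freedom at least 11.5), and none was treated as a repeat. CPM and RPKM were computed from the counts with the TMM factors, and Python 3.11.15 with matplotlib 3.10.9 drew the figures.

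The members, gene lists and tests were chosen with earlier results of these data known, so that no list was tested and no p was adjusted over a list alone. Vegfd and Cnmd stand under older names in the tables and were matched by identifier. The named genes were all members, for each gene list (not the marker lists) the genes called, the 3 highest per kilobase and the 2 with the lowest p, the closest profiles (10 genes for the endothelial mean, 5 for Vegfa), and Idh1, Xist and Y-linked genes. Other genes given with values were picked once these were known. Alternatives were DESeq2 1.42.0, limma-voom (limma 3.58.1), the replicate number as a block in edgeR and DESeq2, upper-quartile factors, no filter on low counts, at least 10 counts in every library, and each library left out in turn. Leaving out control 1 and mutant 3 together was added after the data were seen. Promoter letters are RefSeq's.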

Additional observations from a re-analysis of the deposited data

How the results depend on the processing

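No member was called under any of the 14 alternatives, and the median log2 fold change of the 9 endothelial members stayed between 0.16 and 0.23 (0.20 as reported). The number of genes called over the whole table was less stable than that: 32 as reported, 193 with DESeq2, 96 with DESeq2 and the replicate block, 3 with edgeR and the replicate block, 19 with limma-voom, 259 without the filter on low counts, 5 with control 1 and mutant 3 both left out (added after the data were seen), and 3 to 17 with 1 library left out. The sign turned in 3 members whose values were near 0. Pecam1 lay between -0.008 and 0.10 (0.1) with 1 library left out and at -0.022 with control 1 and mutant 3 both left out. Cdh5 lay between -0.082 and 0.049, and Tek between -0.013 and 0.168, with 1 library left out. In the other settings and members the direction held. The median of the other endothelial genes lay between 0.024 and 0.086 over the alternatives (0.059 as reported). That of the lymphatic genes lay between -0.361 and -0.093 (-0.281 as reported). In the VEGF ligand, angiopoietin, Notch and arterial, mural cell and Vegfa regulator lists the median turned in sign in some settings. The medians of the HIF targets and of the proteins that restrain vessel growth kept their sign. P4ha1 was called with DESeq2, with or without the block, and without the filter. Red cell, leukocyte, tendon and bone markers gained calls in some of these settings. The causes were not tested. Same-numbered libraries did not deviate together over the tested genes (correlations -0.127, 0.007 and -0.0953). With 3 libraries a group and no litters given, these values cannot decide whether the numbers pair the libraries. With the replicate block the median of the 9 members was 0.203. Limits of these data are 3 libraries a group, litters that are not given, 1 mutant library that differed in sex-linked genes, dissected tissue that held muscle, bone and tendon transcripts, and counts that ignored strand, which bears on Sox17. Depth did not limit the members, the lowest of which had 373 counts.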
